A study of Mus musculus with 6 samples.

Results

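The 6 genes described here set the electrical excitability of the muscle membrane: Scn4a, Clcn1, Kcnj2, Kcnq5, Kcnn3 and Atp1b1. They were taken by name from 23861 genes of the annotation of NCBI Build 37 (mm9) that carry a RefSeq name. RNA polymerase II (Pol II) was above input over the bodies of Scn4a, Kcnn3 and Kcnj2 and below input over Kcnq5. Over Clcn1 and Atp1b1 no difference from input was called. Of all gene bodies tested 37.9% were called higher and 26.3% lower. Sox6 peaks were listed in Kcnq5, where both replicates had 1, and in Kcnn3, where replicate 2 alone had 2. None lay within 20 kb of the other 4 genes. Kcnq5 and Kcnn3 are the 2 longest of the 6 genes, at 563535 and 147598 bp. Of all genes, of any length, 4.3% had a peak common to both replicates within 20 kb.

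Chromatin came from wild type C57BL/6 mouse myotubes. Myoblasts were taken from limb muscle of E18.5 fetuses, used at passage 17 and kept for 48 h in medium with 2% horse serum, in which they fuse into myotubes. The chromatin was fixed with disuccinimidyl glutarate and then formaldehyde, precipitated with a Sox6 antibody or a Pol II antibody and sequenced (ChIP-seq), with unprecipitated DNA (input) as the background. Each of the 3 groups (Sox6, Pol II, input) has 2 libraries, and the ChIP libraries of a group come from independent experiments. All 6 come from the same kind of cell, so no treated, mutant or earlier stage stands beside them, and levels of RNA or protein were not measured in these libraries.

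A muscle fibre fires when sodium channels open, and it is kept from firing again by chloride and potassium currents that hold the membrane near rest. Between impulses the sodium pump restores the gradients of sodium and potassium across the membrane. Sox6 is a transcription factor of the Sox family that binds DNA through an HMG box and is best known in muscle as a repressor of slow fibre genes, while Pol II is the enzyme that transcribes protein-coding genes.

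Sox6 peaks were listed at 3 places in these genes, and the sequence of 1 listed interval at each is shown, since no other Sox6 peak lay near the 6 genes. They are the plus strand of Build 37, and capitals mark matches to the Sox motifs ACAAAG and ACAATG, the E-boxes CAGCTG and CAGGTG bound by myogenic factors, and the Tead motif GGAATG, on either strand. The common Kcnq5 peak is chr1:21449042-21449201, and the Kcnn3 peaks of replicate 2 are chr3:89395292-89395451 and chr3:89403172-89403231.
Kcnq5 common peak: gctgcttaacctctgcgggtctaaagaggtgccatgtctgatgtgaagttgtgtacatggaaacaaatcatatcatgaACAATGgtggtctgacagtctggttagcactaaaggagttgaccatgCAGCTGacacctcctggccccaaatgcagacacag
Kcnn3 first peak: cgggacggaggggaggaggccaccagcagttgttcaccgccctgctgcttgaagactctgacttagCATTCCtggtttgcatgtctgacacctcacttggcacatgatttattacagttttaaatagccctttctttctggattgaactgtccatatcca
Kcnn3 second peak: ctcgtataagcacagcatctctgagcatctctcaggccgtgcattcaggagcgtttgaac

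The Kcnq5 interval of 160 bp held 1 ACAATG and 1 CAGCTG, both on the plus strand. The ACAATG began 1 bp before the centre of the peak, and the CAGCTG began 46 bp after it. Of the 1066 common Sox6 peaks, 33.4% held ACAATG and 43.8% held CAGCTG, so neither match sets this peak apart. The interval of replicate 2 there is wider, at 240 bp, and also held CCACA on the minus strand, outside the sequence shown. The first Kcnn3 interval, also 160 bp, held GGAATG on the minus strand 13 bp before its centre, a match found in 23.4% of common peaks, and neither of the Sox motifs. The second Kcnn3 interval, of 60 bp, held none of the 6 motifs searched, which include CCACA of the Runx factors (60.8% of common peaks). Within 200 bp around its centre it held 2 CCACA and again no Sox motif.

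Promoters are shown for a gene with Pol II peaks near its start (Kcnj2), a gene with Pol II along its whole body (Scn4a) and a gene with almost no Pol II reads at its start (Atp1b1). Each is the RefSeq window (GRCm38.p6) of 250 bases before to 50 after the start, read along the gene, with capitals on CG. All 3 occur exactly once in Build 37, at chr11:110927228-110927527 (plus strand), chr11:106210655-106210954 (minus strand) and chr1:166388437-166388736 (minus strand).
Kcnj2 promoter: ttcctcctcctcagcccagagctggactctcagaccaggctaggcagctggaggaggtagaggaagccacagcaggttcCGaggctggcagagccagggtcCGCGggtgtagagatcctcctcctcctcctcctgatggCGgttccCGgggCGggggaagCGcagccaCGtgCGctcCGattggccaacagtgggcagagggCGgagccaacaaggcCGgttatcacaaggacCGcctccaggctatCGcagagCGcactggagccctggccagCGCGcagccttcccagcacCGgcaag
Scn4a promoter: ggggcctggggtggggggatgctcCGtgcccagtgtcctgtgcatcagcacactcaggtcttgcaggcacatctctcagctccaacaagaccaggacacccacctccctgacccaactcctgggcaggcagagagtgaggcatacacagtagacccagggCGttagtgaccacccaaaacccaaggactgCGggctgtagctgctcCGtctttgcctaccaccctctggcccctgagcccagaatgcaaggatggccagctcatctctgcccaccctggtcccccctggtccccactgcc
Atp1b1 promoter: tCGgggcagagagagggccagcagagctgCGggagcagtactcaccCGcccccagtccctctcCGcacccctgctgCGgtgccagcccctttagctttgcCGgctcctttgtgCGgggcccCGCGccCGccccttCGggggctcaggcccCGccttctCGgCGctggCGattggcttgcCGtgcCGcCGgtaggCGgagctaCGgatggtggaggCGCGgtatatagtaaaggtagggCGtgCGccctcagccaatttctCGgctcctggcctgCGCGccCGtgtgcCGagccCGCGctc

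Over all 6 genes the number of CG in the window did not follow the Pol II reads at the start. Atp1b1 and Kcnq5 had the most CG, but their starts held too few reads to be tested. Among the other 4 the order by CG was that of the mean Pol II RPKM at the start, which was not tested. It did not hold in each library, as in replicate 2 Kcnn3 and Clcn1 both had 2.17 RPKM, below Scn4a at 3.62. Nor did the log2 ratio to input follow it, with Scn4a (3.50) above Kcnn3 (2.97) and Kcnj2 (2.94). Atp1b1 had 31 CG, Kcnq5 had 20, Kcnj2 had 18, Kcnn3 had 11, Scn4a had 4 and Clcn1 had 3, against a median of 7 over 32851 promoters. Kcnq5 has a second RefSeq start at −708 bp, whose window held 3. The Kcnj2 window held 1 CAGCTG, found in 16.3% of all promoters, and the Clcn1 window held 1 CAGGTG, found in 20.2%. The Atp1b1 window held 1 ACAAAG, found in 18.7% of promoters, and the upstream Kcnq5 window held 1 ACAATG, found in 12.6%. The Scn4a and Kcnn3 windows held none of the Sox, E-box and Tead motifs.

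The depth was 2985437 and 1468604 reads for Sox6 and 1538757 and 2762155 for Pol II, while each input had 21973495 or more. Over the gene bodies of 8 of 8 differentiated muscle markers Pol II was called above input, with log2 ratios of 2.33 to 6.75, while 0 of 7 fibroblast and 0 of 4 endothelial markers were. Among progenitor markers Pax7 (log2 1.21) and Myf5 (2.28) were called higher and Pax3 lower. Tubb3 (1.07) of 6 neuronal markers, Gfap (0.58) of 4 glial markers and Cd68 (2.74) of 2 blood markers tested were also called higher. Scaled to the median of features Gfap lost its call, and scaled to reads outside peaks 1 fibroblast marker was called higher. Levels are given as reads per kb per 1000000 reads of the library (RPKM, and RPM without the length), counted by the 5' end of each read either within 500 bp of the start or over the body, from 500 bp after the start to the end. Ratios are log2 of ChIP over input ± SE from limma with a trend (2 libraries against 2, two-sided, Benjamini-Hochberg adjustment over all genes tested, called under 0.05). At starts the SE follows the trend over all starts and hardly the spread of a gene's own libraries.

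Ordered by Pol II over the body, the genes ran from Scn4a at 2.48 ± 0.469 RPKM (SD, n = 2), through Kcnn3 at 1.54 ± 0.0384 and Kcnj2 at 1.42 ± 0.108, to Clcn1 at 0.608 ± 0.0905, Atp1b1 at 0.492 ± 0.0258 and Kcnq5 at 0.23 ± 0.00553. Kcnn3 and Kcnj2 did not differ beyond their counting intervals, and neither did Clcn1 and Atp1b1. Actb, a gene with a high Pol II level, had 27.3 ± 6.72 RPKM, so Scn4a reached 9.07% of it and Kcnq5 0.843%. In input the 6 genes lay close together, at 0.501 to 0.658 RPKM.

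**Figure D1:**
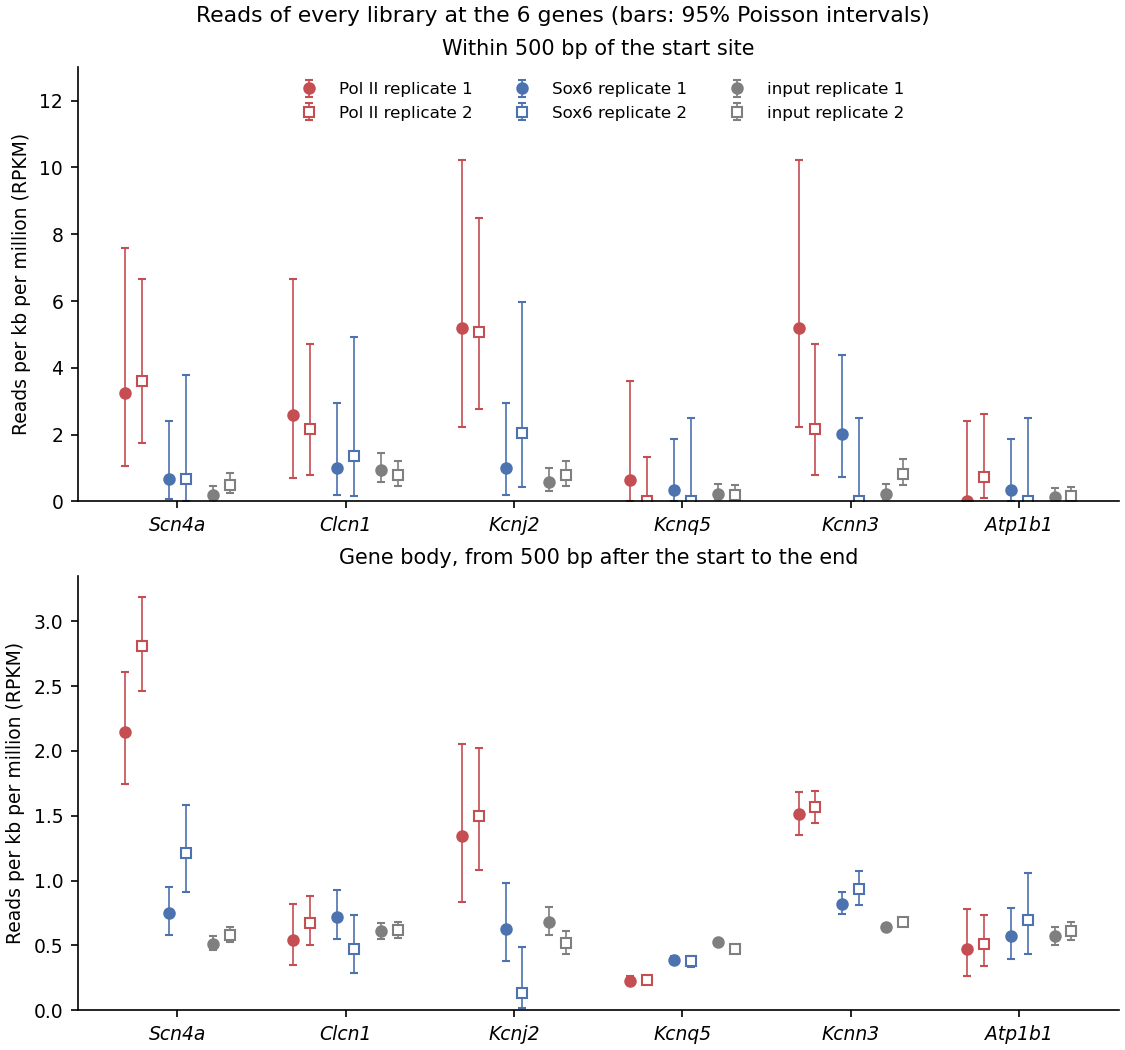
RPKM of the 6 libraries at the 6 genes, within 500 bp of the start (top) and over the gene body (bottom); filled circles are replicate 1, open squares replicate 2, and bars are 95% Poisson intervals, which cover counting error only and reach 3.69 reads for a count of 0, above the limit of 3 reads that the text gives. Over the bodies both Pol II libraries lie above both inputs in Scn4a, Kcnj2 and Kcnn3. They lie below both in Kcnq5 and, with no call, in Atp1b1, and the start windows have wide intervals.

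Scn4a encodes the pore-forming subunit of the main voltage-gated sodium channel of skeletal muscle and has 24 exons on the minus strand of chromosome 11 (chr11:106179906-106210703). Its body of 30297 bp held 100 and 235 Pol II reads, which is 2.15 and 2.81 RPKM, against 342 and 427 input reads, or 0.514 and 0.581 RPKM. Both Pol II libraries were above both inputs, and the log2 ratio of 2.17 ± 0.15 (adjusted p = 3.6e-06) was higher than that of 92.3% of the genes tested. Of all 20163 bodies tested 64.1% were called, 37.9% higher and 26.3% lower, and the median ratio was 0.09. Its start window had 5 and 10 reads of Pol II against 4 and 12 of input, and the log2 ratio was 3.50 ± 0.62. It passed the filter of 20 reads over the 4 libraries only with its Pol II reads, so no p is given for it. Of 13251 starts tested 61.5% were called, 61.3% higher and 0.279% lower, with a median ratio of 1.95, so a call at a start is common. The filter counts Pol II reads too, so these shares are over starts chosen in part by them. With no filter 44.9% of 23861 starts were called, with a median ratio of 1.42.

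Pol II did not set in at the annotated start of Scn4a. The 10 kb before it held 2.79 and 2.93 RPKM of Pol II against 0.587 and 0.726 of input, a level like that of the body. Along 4 equal parts of the gene the log2 ratio of the summed RPKM was 2.06, 2.26, 1.81 and 2.65 from start to end, so no part stood out. In the 10 kb after the end Pol II was lower, at 1.1 and 1.34 RPKM, and still above the inputs of 0.355 and 0.445. A further annotated start, of a second transcript at −3899 bp, had 1 and 6 reads of Pol II against 11 and 15 of input.

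Far upstream of Scn4a a Pol II peak of replicate 1 lay inside one of replicate 2, and the other Pol II peaks near the gene did not overlap between the replicates. Replicate 1 had 3 and replicate 2 had 6 within 20 kb, whereas over all genes 26.1% and 33.7% had at least 1. The nearest to the start were 1.49 kb upstream in replicate 1 and 0.45 kb upstream in replicate 2. In 450 bp around the first the Pol II libraries held 5 and 5 reads and the inputs 7 and 7, and around the second 2 and 10 against 4 and 4. Inside the gene replicate 2 had a peak in intron 13 and another in exon 24, the last, and 1075 bp past the end a further one. The others lay upstream, from −14528 to −16028 bp, near 2310007L24Rik, a gene on the other strand that starts at −16085 bp and was singled out after its reads were seen. That start held 12 and 25 Pol II reads against 14 and 14 of input. 2310007L24Rik runs away from Scn4a, at chr11:106226788-106238428, so its annotated body lies outside the 10 kb before Scn4a. The second Scn4a transcript, from −3899 bp, covers part of that stretch. ChIP reads do not tell which strand Pol II transcribed, and the origin of the Pol II there was not tested.

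Sox6 reads over the Scn4a body were 68 and 54, or 0.752 and 1.21 RPKM, in both libraries above both inputs. The log2 ratio of 0.82 ± 0.22 was not called (adjusted p = 0.0604), and the call changed with the processing, as it passed at 0.000242 with the replicate number as a block. It was larger than that of 89.2% of bodies tested, of which 6.6% were called, 5.01% higher and 1.58% lower. The nearest Sox6 peak of either replicate was 567740 bp from a listed Pol II peak of Scn4a. At the start Sox6 had 2 and 1 reads and was under the filter.

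Clcn1 encodes the chloride channel that carries most of the resting chloride conductance of muscle and lies on the plus strand of chromosome 6 (chr6:42236684-42264655). Over its body of 27471 bp Pol II had 23 and 51 reads, or 0.544 and 0.672 RPKM, and input had 367 and 411, or 0.608 and 0.617. The inputs lay between the Pol II libraries, and the log2 ratio was 0.00 ± 0.17 (adjusted p = 0.991). At the start Pol II had 4 and 6 reads and input 21 and 19, with a log2 ratio of 1.56 ± 0.48 (adjusted p = 0.00217), higher than that of only 41.2% of the starts tested. In a window of 1 kb to either side the ratio was 0.88 and no longer called (adjusted p = 0.0661), and scaled to the median of features it was −0.42 (adjusted p = 0.475). The 10 kb before the start held more Pol II than the gene, with 1.49 and 1.74 RPKM against 0.801 and 0.685 of input. Casp2, whose end lies there, was named after its reads were seen and had 5 and 5 Pol II reads at its own start. Fam131b, on the other strand, overlaps the span of all Clcn1 transcripts by 445 bp at its end but not the model counted here, and its own start had 0 and 1 Pol II reads. Sox6 was not called at the start (3 and 2 reads, log2 0.67 ± 0.57, adjusted p = 0.601) or over the body (59 and 19 reads, −0.05 ± 0.21, adjusted p = 0.9), and neither Sox6 nor Pol II had a listed peak within 20 kb.

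Kcnj2 encodes the inward rectifier potassium channel Kir2.1, which holds the resting potential, and has 2 exons on the plus strand of chromosome 11 (chr11:110927478-110938135). Its start had the most Pol II of the 6 genes by the mean of the libraries, with 8 and 14 reads, or 5.19 and 5.06 RPKM, against 13 and 19 input reads, or 0.591 and 0.783 RPKM. Both Pol II libraries were above both inputs, and the log2 ratio was 2.94 ± 0.42 (adjusted p = 1.16e-11). This was the only gene of the 6 with a Pol II peak centred within 500 bp of its start in both replicates. The peaks were chr11:110927531-110927711 in replicate 1 and chr11:110927451-110927591 in replicate 2, both centred in exon 1. Upstream Pol II reads were few. From 2 to 9 kb before the start no 1-kb bin held more than 1 Pol II read in either library. Inside the gene replicate 2 had 5, 6 and 7 reads in the bins from 7 to 10 kb, where replicate 1 had 3, 2 and 0.

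Over the Kcnj2 body Pol II had 21 and 42 reads, or 1.34 and 1.5 RPKM, and input 152 and 127, or 0.681 and 0.516 RPKM. The log2 ratio was 1.28 ± 0.22 (adjusted p = 0.00101). Of 4 equal parts the first had a log2 ratio of 2.15, the second −0.11, the third 1.28 and the last 1.58. The second part held 1 and 8 Pol II reads, and the replicates differed there. Replicate 1 had 0.244 RPKM of Pol II against 0.905 of input, and replicate 2 had 1.09 against 0.526. Sox6 at the start had 3 and 3 reads against 13 and 19 of input, a log2 ratio of 1.25 ± 0.58 that was not called (adjusted p = 0.244). Of 12323 starts tested for Sox6, 4.02% were called. Over the body the Sox6 libraries disagreed, with 19 reads in replicate 1 and 2 in replicate 2. The ratio of −0.86 ± 0.55 was not called (adjusted p = 0.341). The nearest Sox6 peak to the Pol II peaks of Kcnj2 was 432340 bp away.

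**Figure D2:**
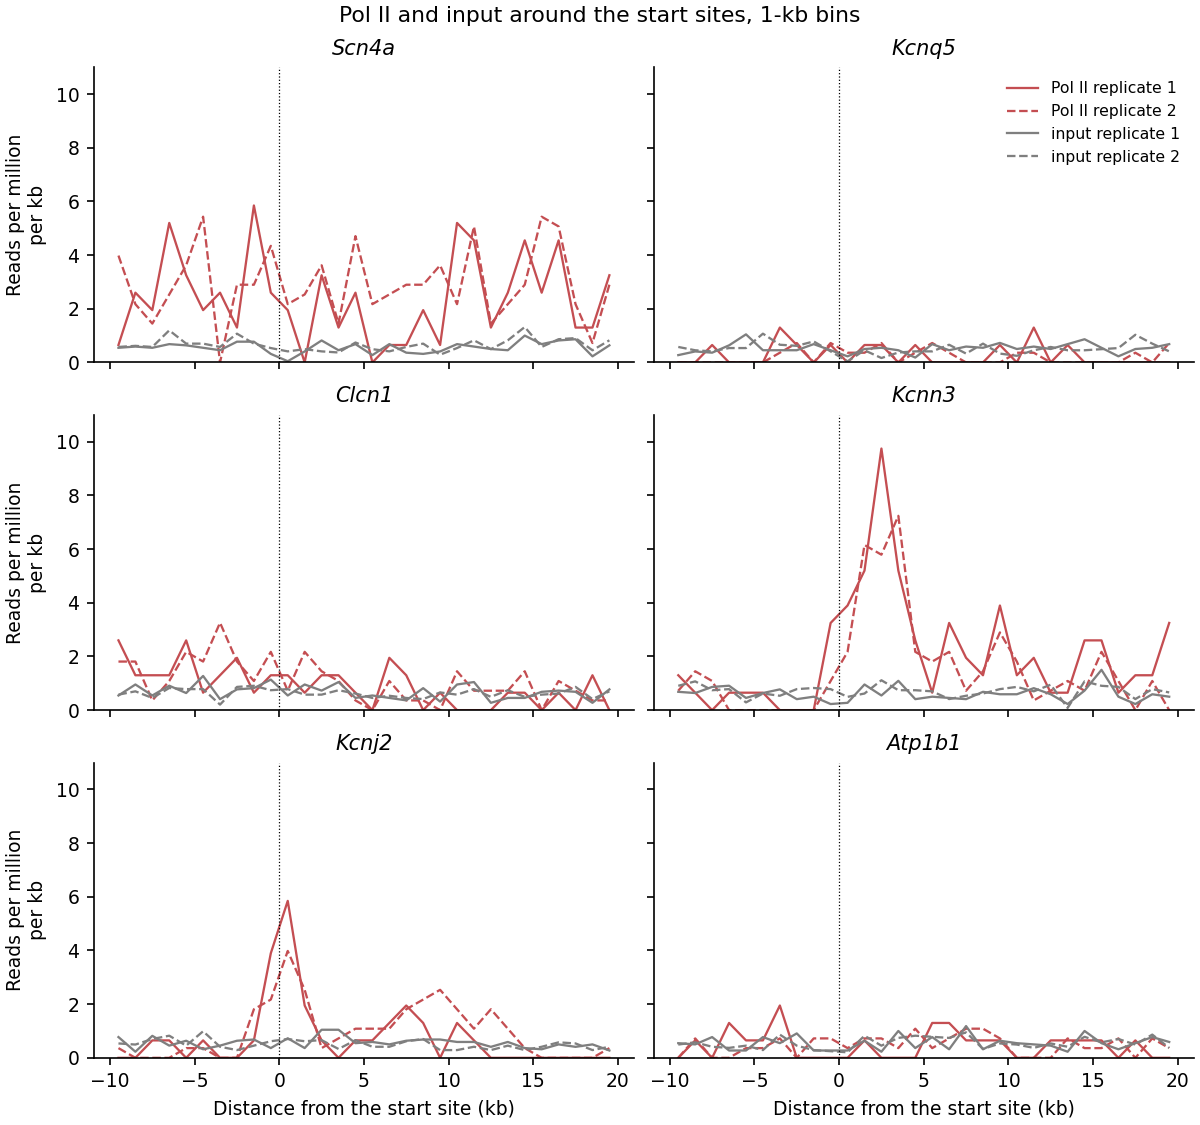
Pol II (red) and input (grey) around the start of each gene, as RPM in bins of 1 kb from 10 kb before to 20 kb after the start, solid for replicate 1 and dashed for replicate 2. Pol II is highest in the kb after the start at Kcnj2 and between 1 and 4 kb after it at Kcnn3, runs on from before the start at Scn4a, and stays near input at Kcnq5 and Atp1b1.

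Kcnn3 encodes SK3, a small-conductance potassium channel opened by calcium, found in immature and denervated muscle fibres. It has 8 exons over 147598 bp on the plus strand of chromosome 3 (chr3:89324086-89471683). Its body held 342 and 636 Pol II reads, or 1.51 and 1.57 RPKM, against 2067 and 2415 of input, or 0.639 and 0.677 RPKM. The Pol II libraries lay clear of the inputs, with a log2 ratio of 1.23 ± 0.07 (adjusted p = 1.72e-06). At the start the libraries of each group differed. Pol II had 8 reads in replicate 1 and 6 in replicate 2, while input had 5 and 20, and the log2 ratio was 2.97 ± 0.54 (adjusted p = 1.45e-07). This SE and p rest on the trend over all starts and do not measure how far the libraries of Kcnn3 differed. Measured within replicates the ratio was 4.46 in the first and 1.48 in the second, and scaled to the median of features it was 0.99 and not called (adjusted p = 0.136).

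Pol II along Kcnn3 was highest in 2 places. The first lay in intron 1, where the 2 kb from 2 kb after the start held 23 and 36 Pol II reads, and where both replicates had a peak, centred 2.4 and 2.88 kb after the start. The second lay deep in intron 2, where the 2 kb from 74 kb held 17 and 31 reads, with a peak at 74.4 kb in replicate 1 and at 74.1 kb in replicate 2. Replicate 2 listed one more peak, at 60045 bp, with 8 reads in 450 bp where replicate 1 had 3. In 450 bp around the peak at 74.4 kb the Pol II libraries had 9 and 7 reads and the inputs 7 and 9. No annotated start of Kcnn3 lies there. The only other one, at 142354 bp, had 1 and 0 Pol II reads. By equal parts of the gene the log2 ratio was 1.47, 1.15, 1.43 and 0.74 from start to end.

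Sox6 over the Kcnn3 body had 361 and 202 reads, or 0.822 and 0.935 RPKM, both above both inputs. The log2 ratio of 0.42 ± 0.10 was called (adjusted p = 0.0419), but the call was lost under 4 of the 12 alternatives, and 68.9% of bodies had a lower ratio. At the start replicate 1 had 6 reads and replicate 2 had 0, which allows up to 2.04 RPM, and the ratio of 0.90 ± 0.94 was not called (adjusted p = 0.703).

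The 2 Sox6 peaks of Kcnn3 were both in intron 2, at 71.3 and 79.1 kb after the start. They flanked the Pol II peaks near 74 kb, from which they were 2320 to 4661 bp away. The share of all genes, of any length, with a peak within 20 kb was 6.62% in the list of replicate 2. It was 9.59% in that of replicate 1 and 4.3% in the common list. Around the first, replicate 2 had 3 Sox6 reads in 450 bp, or 2.04 RPM, and replicate 1 had 6, or 2.01 RPM, against 12 and 15 input reads, or 0.546 and 0.619 RPM. In 900 bp of flank, taken 2 kb to either side, replicate 1 had 6 Sox6 and 10 input reads, as many Sox6 reads as in the 450 bp of the peak, and replicate 2 had 1 and 21. Around the second, replicate 2 had 7 reads, or 4.77 RPM, and replicate 1 had 0, which allows up to 3 reads, the limit for a count of 0. So the libraries gave like values at the first peak and unlike values at the second.

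The reads of the replicate that had not called a peak were then compared with the input of the same number (exact binomial test, two-sided), which sets 1 library against 1 library and covers counting error only. The first Kcnn3 peak had 3.68 times the input RPM in replicate 1 (exact binomial test, adjusted p = 0.019). Its 900 bp of flank in replicate 1, with 6 Sox6 and 10 input reads, had a higher ratio of Sox6 to input. So the test cannot tell the peak from the region around it. The second Kcnn3 peak was not called (0 against 8 reads, exact binomial test, adjusted p = 0.633). Over the whole list of replicate 2, 84.4% of 1734 peaks were called higher in replicate 1. Replicate 1 did not list either peak, and that choice used the reads tested here. Counted in the peak interval alone, the first held 2 Sox6 and 3 input reads and was not called (exact binomial test, adjusted p = 0.184).

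**Figure D3:**
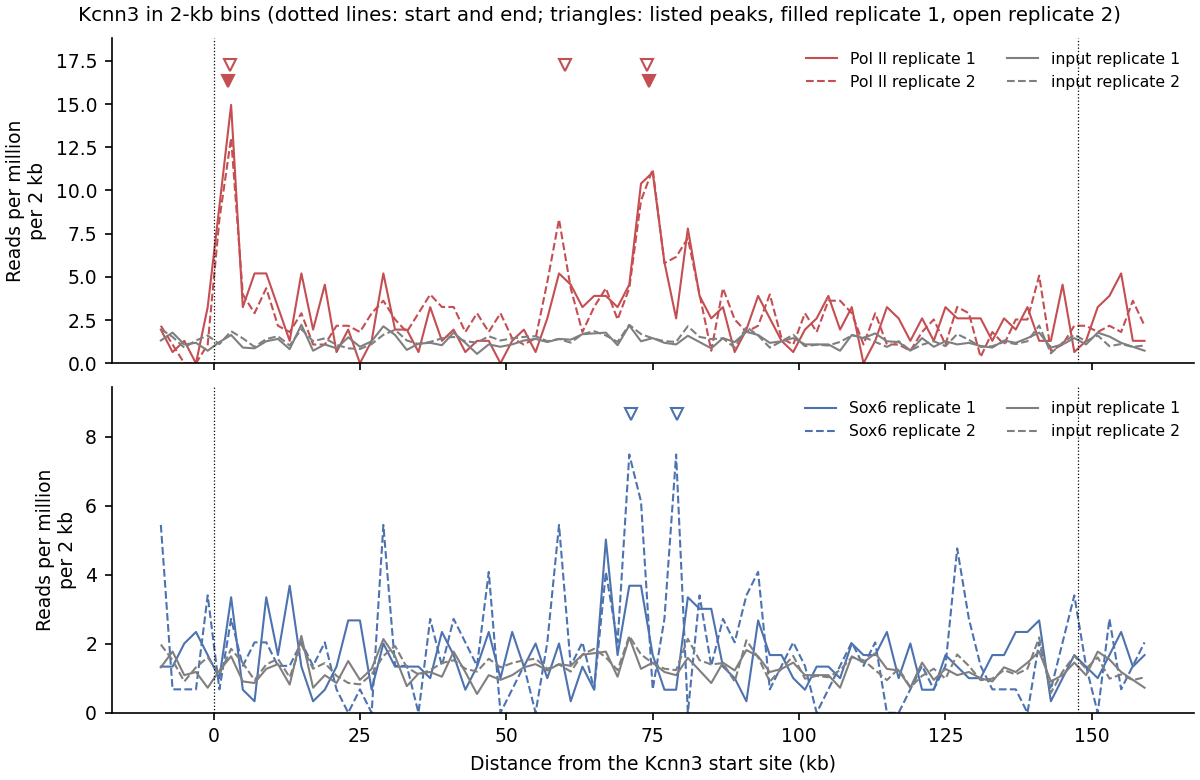
Pol II (top) and Sox6 (bottom) with input (grey) along Kcnn3 in bins of 2 kb, as RPM against distance from the start in kb, solid for replicate 1 and dashed for replicate 2; dotted lines mark the start and the end of the gene, and triangles the listed peaks (filled replicate 1, open replicate 2). Pol II rises near 2 to 4 kb and 72 to 76 kb in both replicates, and the 2 Sox6 peaks of replicate 2 lie to either side of the second rise.

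Kcnq5 encodes a voltage-gated potassium channel of the M-current family that is expressed in brain and in muscle. It is by far the longest of the 6 genes, with 15 exons over 563535 bp on the minus strand of chromosome 1 (chr1:21388489-21952023). Over its body Pol II had 196 and 364 reads, or 0.226 and 0.234 RPKM, and input 6530 and 6473, or 0.528 and 0.474 RPKM. Both Pol II libraries were below both inputs, with a log2 ratio of −1.12 ± 0.08 (adjusted p = 3.53e-06), and 19.8% of bodies had a lower ratio. The 4 equal parts were all below input, at −1.20, −1.29, −1.21 and −0.85. The start window had 1 and 0 reads of Pol II against 5 and 5 of input and was under the filter. None of the other 3 annotated starts had more than 1 Pol II read in a library. Input itself was thin there, since the median start held 8 and 10 input reads. No Pol II peak lay within 20 kb of the gene.

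Over the Kcnq5 body Sox6 was also below input, with 648 and 311 reads, or 0.386 and 0.376 RPKM. The log2 ratio was −0.39 ± 0.08 (adjusted p = 0.0291). It was not called without input replicate 1 (adjusted p = 0.236) or with an equal amount added in RPM (0.0552). By equal parts, with no test, the Sox6 ratio was least below input at the end of the gene, with log2 values of −0.57, −0.51, −0.33 and −0.21.

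Against this background the single common Sox6 peak of Kcnq5 stood in intron 10 of 14, 502.9 kb after the start and 1.34 kb from the nearest exon. Replicate 1 listed it as chr1:21449092-21449151 and replicate 2 as chr1:21449032-21449271. In 450 bp around its centre Sox6 had 10 and 8 reads, or 3.35 and 5.45 RPM, and input had 4 and 8, or 0.182 and 0.33 RPM. In 900 bp of flank, taken 2 kb to either side, Sox6 had 8 and 4 reads. The log2 ratio of 4.07 ± 0.68 was above the median of 3.52 over 1065 common peaks, which is a description only, since these reads chose the peak.

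Since both replicates listed this peak, its reads in the other replicate are given with no p. Around the replicate 1 peak, replicate 2 had 8 Sox6 and 8 input reads, 16.5 times the input RPM. Around the replicate 2 peak, replicate 1 had 9 and 3 reads, 22.1 times the input RPM. Over the whole list of replicate 1, 67% of 2888 peaks were called higher in replicate 2. In the 60 bp of the replicate 1 interval alone replicate 2 had 0 reads of either kind.

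Pol II was scarce at the Kcnq5 peak, with 0 and 3 reads, and the nearest Pol II peaks were 405591 and 311971 bp away. The peak was under the filter for Pol II, and without the filter the log2 ratio was 1.26 ± 1.01 (limma, adjusted p = 0.277). In replicate 1 the ratio was 0.67 with 0 Pol II reads, so its sign there comes from the 0.5 reads added to each count. Of 955 common peaks tested 64.3% were called for Pol II, 62.8% higher.

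**Figure D4:**
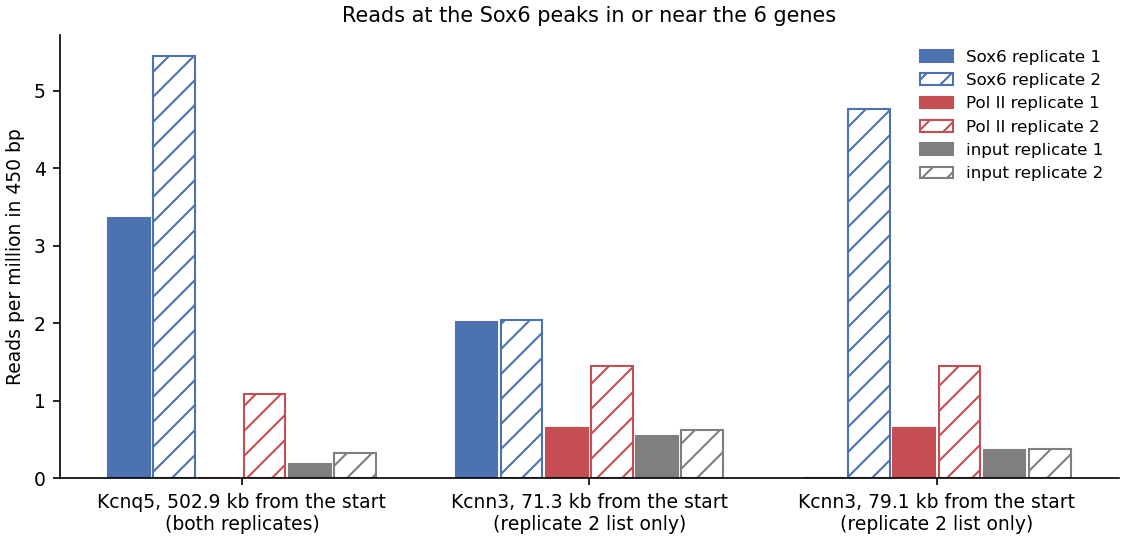
RPM in 450 bp around the Sox6 peaks of Kcnq5 and Kcnn3 for the 6 libraries (filled bars replicate 1, hatched replicate 2). Sox6 exceeds input in both replicates at the Kcnq5 peak (3.35 and 5.45 RPM) and at the first Kcnn3 peak, and in replicate 2 alone at the second.

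Atp1b1 encodes the β1 subunit of the sodium pump, which brings the catalytic α subunit to the membrane. It has 6 exons on the minus strand of chromosome 1 (chr1:166367398-166388486). Over its body of 20588 bp Pol II had 15 and 29 reads, or 0.473 and 0.51 RPKM, and input had 258 and 304, or 0.57 and 0.609 RPKM. Both Pol II libraries were below both inputs, but the log2 ratio of −0.23 ± 0.19 was not called (adjusted p = 0.303). Scaled to reads outside peaks, the ratio was 0.13. The start held 0 and 2 Pol II reads, and 0 reads allow up to 1.95 RPM in Pol II replicate 1. Input at the start had 3 and 4 reads, the fewest of the 6 genes, so a low Pol II level was not detectable there. Sox6 had 1 and 0 reads at the start, and over the body 35 and 21, a log2 ratio of 0.12 ± 0.20 (adjusted p = 0.732). No peak of either factor lay within 20 kb.

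**Figure D5:**
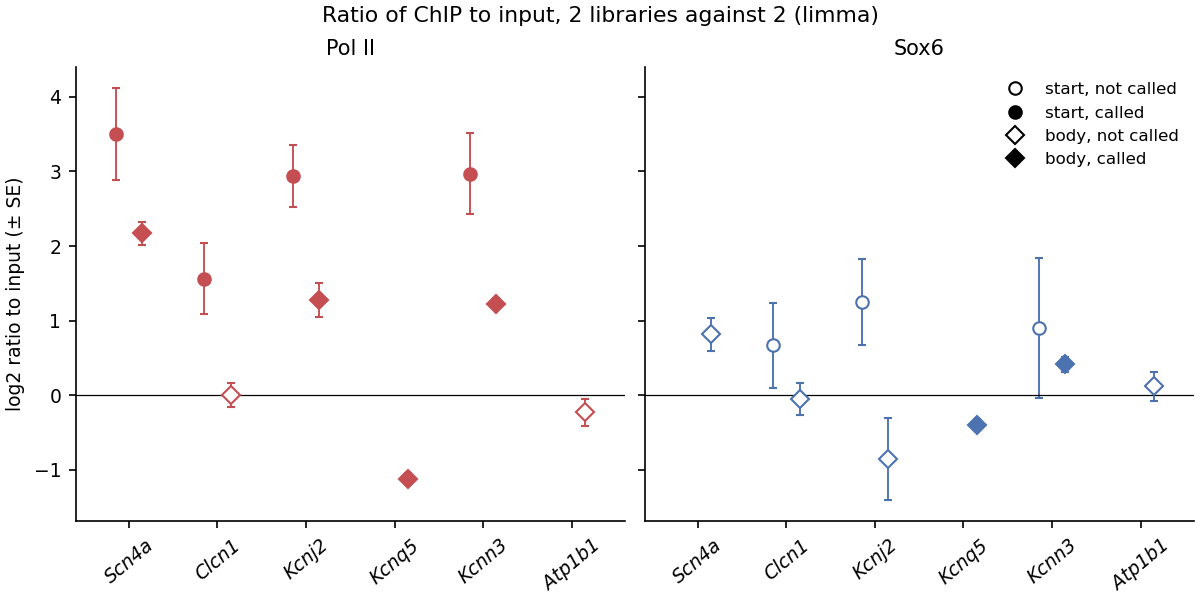
The log2 ratio of Pol II (left) and Sox6 (right) to input for the 6 genes ± SE (limma, 2 libraries against 2), with circles for starts, diamonds for bodies and filled symbols for adjusted p under 0.05. The SE at starts follow the trend over all starts, not the spread of a gene's own libraries. Pol II is called higher at the starts of Clcn1, Kcnj2 and Kcnn3 and over 3 bodies and lower over 1 body, the start of Scn4a passed the filter only with its Pol II reads, Sox6 is called at 2 bodies in opposite directions and at no start, and starts with under 20 reads are not drawn. Scaled to the median of features the starts of Clcn1 (−0.42) and Kcnn3 (0.99) were not called. Of all genes tested for Pol II, 61.3% of starts and 37.9% of bodies were called higher and 26.3% of bodies lower. For Sox6, 6.6% of bodies and 4.02% of starts were called.

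Related genes came from lists drawn up with earlier results of these data known. Their counts stand beside 37.9% of all bodies called higher and 26.3% called lower, which is 7639 and 5295 of 20163. Counts scaled to reads outside peaks stand beside 9169 called higher and 3593 lower under that scaling. Of 13 other pump subunits and regulators 3 were called higher over the body and 0 lower (5 and 0 scaled to reads outside peaks, which turned the median from −0.04 to 0.32). Atp1b3 (log2 1.56, adjusted p = 1.13e-05), encoding the β3 subunit, was among them. Among β subunits Atp1b3 had 2.46 and 2.05 RPKM of Pol II and Atp1b1 had 0.473 and 0.51. Atp1b2 and Atp1b4 lay near Atp1b1, at 0.456 and 0.635 and at 0.712 and 0.559 RPKM.

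Of 13 other sodium channel subunits 2 were called higher and 7 lower. Scn3b, an auxiliary β subunit, was among those called higher (log2 1.26, adjusted p = 0.000123), with 1.19 and 1.42 RPKM of Pol II beside the 2.15 and 2.81 of Scn4a. Of 9 other chloride channels 7 were called higher and 1 lower, with the highest ratios at Clcn5 (2.63), Clcn6 (1.47) and Clcn4-2 (1.43), all of intracellular compartments. Their difference from Clcn1 was not tested.

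Of 16 genes of the inward rectifier family and its regulatory subunits 2 were called higher and 8 lower, or 4 and 4 scaled to reads outside peaks. The 3 highest ratios were those of Kcnj11 (1.90), which encodes the pore of the muscle ATP-sensitive channel, Kcnj13 (1.34) and Kcnj14 (0.85, adjusted p = 0.0742), which was called when scaled to reads outside peaks (adjusted p = 0.0211). Of 24 voltage-gated potassium channel genes tested 4 were called higher and 10 lower, with the highest ratios at Kcnh2 (1.13) and Kcnq1 (0.68). Kcnq1 had 0.984 RPKM of Pol II or more in each library, above Kcnq5 in both, while Kcnq3, at 0.0895 and 0.0984, was below it. Of 8 calcium-activated potassium channel genes 0 were called higher and 5 lower (1 and 4 scaled to reads outside peaks), with the highest ratios at Kcnn1 (0.40, adjusted p = 0.206), Kcnn4 (−0.01, adjusted p = 0.981) and Kcnt1 (−0.75, adjusted p = 0.0147). Scaled to reads outside peaks Kcnn1 was called higher (0.76, adjusted p = 0.0328), Kcnn4 was at 0.35 and Kcnt1 lost its call (−0.39). In its family Kcnn3 had the most Pol II of the SK genes measured, at 1.51 and 1.57 RPKM against 0.494 and 0.501 in Kcnn1, 0.315 and 0.401 in Kcnn4 and 0.119 and 0.104 in Kcnn2. Of the 4 scaffold genes found 2 were called higher, Sntb1 (1.51) among them, and 2 lower, with Ank3 at −0.26 (adjusted p = 0.00467), which turned to 0.0975 and lost its call (adjusted p = 0.168) scaled to reads outside peaks.

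Of 87 related genes tested over the body 4 had a common Sox6 peak within 20 kb (Kcnj13, Kcnd2, Ank2 and Ank3), a share of 4.60% beside the 4.3% of all genes. Over the 4 log2 ratios (Pol II and Sox6, start and body, with no filter), the related genes nearest by Euclidean distance were Atp1b2 (0.524) and Kcnc1 (0.582) for Clcn1, and Ano5 (0.67) and Scn3b (0.805) for Kcnj2. For Kcnq5 they were Kcnab1 (0.453) and Kcnh1 (0.613), and for Atp1b1 Ank3 (0.461) and Scn4b (0.69). The start ratios of Kcnq5 and Atp1b1 rest on at most 2 ChIP reads in a library. Their SE of 0.913 to 1.07 exceed these distances. The SE of the Pol II and Sox6 start ratios were 0.509 and 0.613 for Clcn1 and 0.443 and 0.626 for Kcnj2, of the size of their distances. So the nearest genes of all these members are uncertain.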

How the data were processed

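Chromatin of mouse fetal myotubes was immunoprecipitated for Sox6 and for Pol II in 2 experiments each, and 2 inputs were sequenced. Groups and replicate numbers were taken from the labels. The authors aligned single-end reads with Bowtie (0.12.5) to NCBI Build 37 (mm9), kept reads with a single place, and called peaks with SISSRs in each library against its input. Common Sox6 peaks were those found in both replicates. The deposited files hold the positions of reads and peaks, with no counts and no normalization. Repeated positions were left in and made up 2.96% to 7.88% of the reads of a library. Reads mapping to several places are not in the files, which can thin windows of repeated sequence.

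Reads were counted by their 5' end at the longest GENCODE model of each gene with a RefSeq name, and scaled to all reads of the library. The test was limma 3.58.1 (R 4.3.3) with a trend on log2 RPM (reads per 1000000) with 0.5 reads added, for features with at least 20 reads over the 4 libraries. It had been chosen because the files hold no column of counts. Peaks were also read in the other replicate by exact binomial tests (scipy 1.17.1). The limma p-values rest on 2 libraries a group, or 1 in a group where a library was left out, and the binomial ones on 1 library against 1. In limma the variance of a feature is drawn toward the trend over all features, at starts almost fully. The members and lists were chosen with earlier results of these data known. The genes named were the 6 members, Actb, RefSeq genes overlapping or starting within 5 kb of the start of a member, the 3 related genes of each list with the highest Pol II ratio, and the 2 nearest by distance. Outside this rule stand Atp1b4, Kcnn2 and Kcnq3, given as relatives of a member, Kcnd2 and Ank2, given for their peaks, and 2310007L24Rik and Casp2, all chosen after their values were seen. Some related genes that this rule names are not reported here, and the counts of the lists include them. Alternatives changed the added reads, scaling, filter, windows, read placement, repeated positions, block and libraries. The score columns of the peak files were not used.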

Additional observations from a re-analysis of the deposited data

How the results depend on the processing

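With 1 library left out the lone library is assumed to vary like the others. The Pol II values over the bodies of Scn4a, Kcnj2, Kcnn3 and Kcnq5 kept their direction and their call under all 12 alternatives run, with log2 ratios of 1.98 to 2.53, 1.08 to 1.63, 1.07 to 1.58 and −1.28 to −0.76. The start of Kcnj2 kept its direction (0.96 to 3.31, 13 alternatives), and its call in the fits with all 4 libraries. Without input replicate 1 or 2 the input reads left, 19 or 13, were under the minimum of 20. In those fits it passed only with its Pol II reads, so they are no support for its call. The start of Scn4a (1.52 to 3.95, 11 alternatives) passed the minimum only with its Pol II reads. It fell under the minimum without input replicate 2 and in a window of 250 bp to either side. Scaled to the median of features, which assumes no difference at most starts and lowers the median there by 1.98, the start of Clcn1 was at −0.42 and that of Kcnn3 at 0.99 (adjusted p = 0.136). Of 241 named values under an alternative 209 kept direction and side of the threshold, 10 lost a call, 7 gained one and 15 changed sign. The causes were not tested. Scaling to reads outside peaks raised the median Pol II ratio by 0.36, and the share of called bodies that were higher went from 59.1% to 71.8%. Under the 3 other scalings the medians of the 7 related lists kept their sign, apart from the sodium pump (0.32).

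None of the values that changed sign was called in the fit reported or in the alternative, apart from the start of Clcn1. Clcn1 over the body was −0.0178 with an equal amount added in RPM, −0.0408 with repeated positions counted once, −0.16 scaled to the median, and −0.142 to 0.146 with 1 library left out, being below 0 without Pol II replicate 2 or input replicate 1 (−0.00808). Atp1b1 over the body was 0.13 scaled to reads outside peaks. For Sox6 over the body, Clcn1 was at 0.00226 scaled to reads outside peaks, 0.24 without Sox6 replicate 2 and 0.0148 over the whole gene, Kcnj2 at 0.11 without Sox6 replicate 2, and Atp1b1 at −0.047 scaled to the median and between −0.0316 (without Sox6 replicate 2) and 0.268 (without Sox6 replicate 1). For Sox6 at the start, Clcn1 was at −0.20 in a window of 1 kb to either side and Kcnn3 between −0.43 (without Sox6 replicate 1) and 2.24 (without Sox6 replicate 2).

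Counts of calls over all genes moved most for Sox6. At starts 496 were called, 0 with an equal amount added in RPM, 115 scaled to the median, 1625 with no filter, 196 in a window of 250 bp and 30 in one of 1 kb, and 2 to 3513 with 1 library left out. Over bodies 1333 were called, 298 with the equal amount, 759 scaled to the median, and 228 to 10356 with 1 library left out. The range at starts came from Sox6 replicate 1 and 2, and over bodies the highest from leaving out Sox6 replicate 1 and the lowest from input replicate 1. Without Sox6 replicate 1 Kcnj2 was called at the start (1.76) and over the body (−1.83), as was the body of Clcn1 (−0.34), and the body of Scn4a was called without either Sox6 replicate (1.16 and 0.47). The body of Kcnn3 was not called without input replicate 1 (0.38) or 2 (0.46). Pol II calls at starts went from 8154 to 5138 scaled to the median and 4120 in 250 bp, with 5576 to 8755 when 1 library was left out. At common peaks they went from 614 to 182 scaled to the median, with 307 to 549 when 1 library was left out. Peaks called in the other replicate, 1936 and 1463, fell to 902 and 790 in the peak interval alone, and the 3 motif matches in the Sox6 peaks became 5 within 200 bp of the centres.

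With the replicate number as a block, 3803 bodies were called for Sox6, and Scn4a among them (adjusted p = 0.000242); the other calls of the 6 genes stayed as they were. Peaks were called against the input of each experiment, but neither the labels nor the methods say that equal numbers mark 1 experiment, and deviations of same-numbered libraries from their group means correlated over genes at 0.0115 for Pol II and 0.167 for Sox6, with 2 pairs. Depth limits the starts, where a member held at most 14 Pol II and 6 Sox6 reads in a library.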
